A study of Mus musculus with 12 samples.

Results

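Recovery from heat shock was followed in the wild-type (WT) mouse embryonic stem cell line V6.5 by comparing the 2 libraries taken after a return to 37 °C for 1 h (WT recovery) with the 2 libraries taken directly after the heat (WT HS). These 4 libraries were chosen by their labels, out of 12 in the series. The heat was 42 °C for 30 min in both groups, so that the hour at 37 °C is the labelled difference between them. The 2 unheated WT libraries (WT noHS) served as the reference level. Cells lacking Mettl14 (KO, Mettl14 -/-), part of the methyltransferase that places N6-methyladenosine on mRNA, were sampled at the same 3 stages with 2 libraries each, and entered the estimate of the spread and 1 comparison. Cells of either genotype grew on gelatin with LIF and inhibitors of GSK3 and MEK1, per the labels' protocols. The series' design calls the 2 libraries of a group biological replicates, and the labels do not say whether the knockout was 1 clone.

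Ribosome profiling sequences the short pieces of mRNA that a ribosome shields from nuclease, so a count per transcript follows the number of ribosomes on all copies of it. Without matched mRNA levels, which were not analysed here, a change in ribosomes per copy and a change in the number of copies cannot be told apart. Heat shock unfolds proteins, and cells answer it by making chaperones and by holding back the translation of most other mRNAs. When the heat ends, the held-back mRNAs return to ribosomes as protein folding is restored, at a pace that depends on how severe the heat was.

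The deposited files name transcripts by identifiers of the UCSC type and do not pair them with gene symbols. None of the 61396 identifiers matched the mouse gene table used here (0 matches). No gene is therefore named, chaperones and other gene groups could not be counted, and the labelled cell type was not checked against stem cell markers. Reads were counted per transcript in 3 ways, ignoring strand (either-strand counts), in the transcript's direction (sense) and against it (antisense), and the either-strand and sense counts were analysed side by side. The labels do not state whether the library kit kept strand. The words sense and antisense, and the strand classes formed from them, therefore follow the file's columns. Outside the most abundant transcripts the sense counts made up 50.5% to 77.9% of the stranded counts in the WT libraries. This pooled share mixes transcripts read on opposite strands. Most tested transcripts with enough counts to be classed lay largely on a single strand, as the classes below show.

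Few reads were assigned, and they were uneven. Either-strand counts assigned to transcripts numbered 182409 in HS 1 and 19538 in HS 2, 125342 in recovery 1 and 81002 in recovery 2, and 53017 and 111371 in the unheated libraries. Sense counts numbered 430685, 34184, 267691 and 167721 in HS 1, HS 2, recovery 1 and recovery 2. Each exceeded the either-strand counts of its library, so the sense counts are not simply a part of the either-strand counts. Most of these counts lay in 4 transcripts that each exceeded 10% of some library of the series. Together they held 88.9% and 52.7% of the either-strand counts in HS 1 and HS 2, 84.3% in recovery 1 and 65.0% in recovery 2. Outside them, 20289, 9232, 19705 and 28321 either-strand counts were left in HS 1, HS 2, recovery 1 and recovery 2, and these carry the comparisons below. After the filter on low counts, 618 transcripts were tested in the either-strand counts and 537 in the sense counts. The biological coefficient of variation, the spread between replicates beyond counting error, was 64.1% and 66.1%.

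The recovery libraries did not resemble each other. Recovery 1 stood close to the heated libraries and recovery 2 close to the unheated ones, in rank order and in the number of transcripts detected. The share of sense reads was the exception among the library measures. Nothing in the labels sets these libraries apart, and the labels were kept as given. Whether labels were exchanged between libraries was not tested, and every value of a single recovery library depends on them. Because of this, each recovery library is given on its own beside the comparison of both.

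Among the tested transcripts outside the 4 dominant ones, 614 in the either-strand counts, the rank correlation (Spearman, across transcripts, on TMM-scaled levels) of recovery 1 was 0.768 with HS 1 and 0.609 with HS 2. With the unheated libraries it was 0.404 and 0.286. Recovery 2 showed the opposite order, with 0.328 and 0.149 against the heated libraries and 0.698 and 0.816 against the unheated ones. The correlation of the recovery libraries with each other was 0.437. In the sense counts, over 533 transcripts, recovery 1 gave 0.715 and 0.509 with the heated libraries and 0.284 and 0.235 with the unheated ones, and recovery 2 gave 0.267 and 0.0387 against 0.689 and 0.817. These values describe libraries of unequal depth over transcripts that are not independent of each other, and they carry no test.

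**Figure D1:**
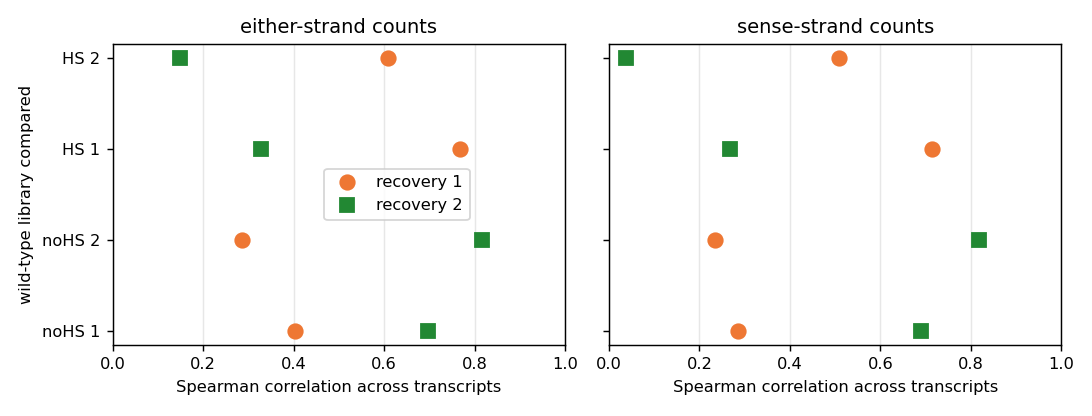
Spearman correlation across transcripts (x axis, 0 to 1) of each recovery library with the WT libraries HS 2, HS 1, noHS 2 and noHS 1 (y axis), in either-strand counts (left, 614 transcripts) and sense counts (right, 533). Recovery 1 (orange circles) lies to the right in the heated libraries, up to 0.768, and recovery 2 (green squares) in the unheated ones, up to 0.817.

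The order held for transcripts read on their own strand and was weaker for transcripts read on the opposite strand. A sense class and an antisense class were formed from transcripts whose stranded counts, at least 50 in the 12 libraries, lay to at least 80% on that strand. Of the 618 tested in either-strand counts, 331 fell in the sense class, 119 in the antisense class and 28 between, and 140 had fewer counts. In 328 sense-class transcripts outside the dominant ones, recovery 1 correlated at 0.799 and 0.638 with HS 1 and HS 2 and at 0.226 and 0.136 with noHS 1 and noHS 2, while recovery 2 gave 0.223 and 0.106 against 0.570 and 0.722. In 118 antisense-class transcripts all 8 of these correlations lay between 0.615 (recovery 1 with noHS 2) and 0.819 (recovery 1 with HS 1).

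The number of different transcripts detected at a fixed depth of 5000 either-strand counts, outside the dominant ones, was 1311 in HS 1 and 1367 in HS 2. It was 1329 in recovery 1, which lies between these, and 1792 in recovery 2. The unheated libraries reached 1840 and 1879. Recovery averaged 1560 ± 327 (SD, n = 2) and heat shock 1339 ± 39.9 (SD, n = 2), a difference of 222 transcripts that came from recovery 2. The exact two-sided permutation test gave p = 0.667. With 2 libraries against 2 it cannot go below 0.333.

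The share of stranded counts that lay on the sense strand, outside the dominant transcripts, was 56.9% (95% Wilson interval 56.3% to 57.6%) in HS 1 and 50.5% (49.5% to 51.4%) in HS 2. It was 61.5% (60.9% to 62.2%) in recovery 1 and 76.9% (76.4% to 77.4%) in recovery 2. Both recovery libraries were above both heated ones, and the exact permutation test gave p = 0.333, the smallest it can give. Unheated libraries gave 62.6% (noHS 1) and 77.9% (noHS 2), so recovery 1 lay near the lower and recovery 2 near the higher of these. Each recovery library thus lay near the unheated library of the same replicate number. Reads copied by amplification do not count separate molecules, so the intervals hold counting error alone. The difference of the means, 69.2% ± 10.9 in recovery against 53.7% ± 4.57 in heat shock (SD, n = 2 each), was 15.5 percentage points. It shrank to 3.18 when no transcript was left out.

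**Figure D2:**
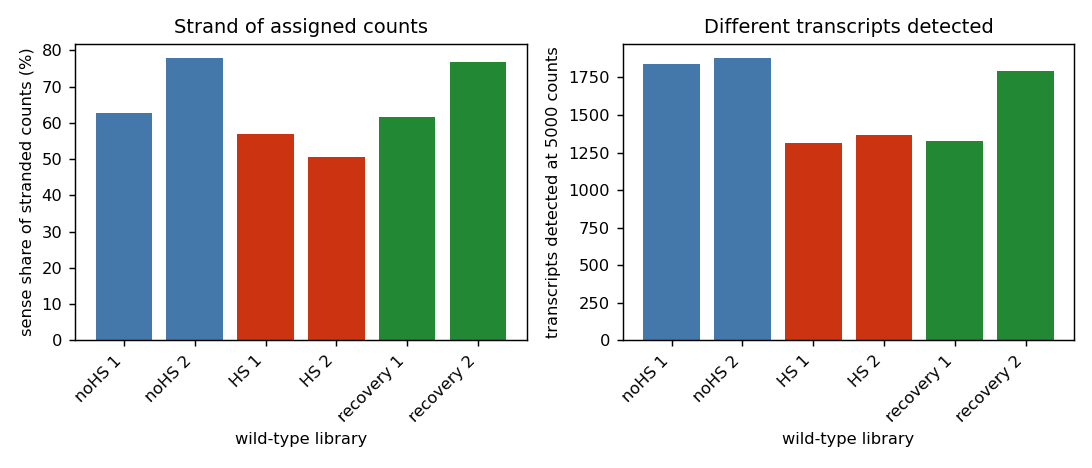
Sense share of stranded counts in percent (left) and number of transcripts detected at 5000 either-strand counts (right) in the 6 WT libraries, both outside the 4 dominant transcripts; 1 bar is 1 library, blue unheated, red heated, green recovery. Recovery 1 stands at 1329 transcripts beside the heated libraries, and recovery 2 at 1792 beside the unheated ones.

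In the comparison of both recovery libraries with both heated ones, no transcript passed the threshold of 0.05 on the adjusted p of edgeR's quasi-likelihood test, in either count. In the either-strand counts 0 of 618 passed (0%), with a lowest adjusted p of 0.146. At an unadjusted p below 0.05 there were 117, of which 109 were higher in recovery (17.6% of those tested) and 8 lower (1.29%). Among the sense counts 0 of 537 passed (0%), with a lowest adjusted p of 0.0635, and 125 had an unadjusted p below 0.05, 114 higher (21.2%) and 11 lower (2.05%). DESeq2's Wald test on the same transcripts gave 6 higher and 0 lower in the either-strand counts and 1 higher and 0 lower in the sense counts. The median log2 fold change over all tested transcripts was 0.55 and 0.91 (recovery over heat shock), so the typical tested transcript was fitted as higher in recovery. Under the other scalings tried this median ran from 0.35 to 0.76 and from 0.82 to 1.37. Both recovery libraries lay above both heated ones for 178 of 618 transcripts (28.8%) and below both for 85 (13.8%); in the sense counts this held for 173 (32.2%) and 52 (9.68%) of 537.

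Of the transcripts higher in recovery, the lowest unadjusted p-values belonged to uc007puz.1 and uc009ajk.1. Neither heated library held a count of uc007puz.1. Its sense counts were 25 and 111 in the unheated libraries, 0 and 0 in the heated ones, 6 in recovery 1 and 57 in recovery 2, and its either-strand counts were the same numbers. In counts per 1000000 after TMM scaling (CPM), its sense level was 253 and 521 unheated, 65.8 in recovery 1 and 394 in recovery 2. Taking the heated group at a floor of 3 counts, its level was at least 16.6-fold higher in recovery as a group, at least 4.09-fold in recovery 1 and at least 24.5-fold in recovery 2. Recovery 2 lay within the range of the unheated libraries and recovery 1 below it. The adjusted p of edgeR's test over both recovery libraries was 0.0635 in the sense counts and 0.146 in the either-strand counts.

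The transcript uc009ajk.1 kept 2 sense counts in 1 heated library. Its sense counts were 96 and 204 unheated, 2 and 0 heated, 17 in recovery 1 and 129 in recovery 2. The sense level was 973 and 957 CPM unheated, 17.9 and 0 heated, 187 in recovery 1 and 891 in recovery 2. Recovery over heat shock was 57.7-fold in summed sense counts (95% Clopper-Pearson interval 15.7 to 481, counting error only), with an edgeR adjusted p of 0.0635. Set against the unheated group, recovery 1 was 5.16-fold lower (3.17 to 8.98) and recovery 2 stood at 0.926 times the unheated level (0.748 to 1.14), an interval that includes no difference. The recovery libraries thus differed 4.78-fold from each other (2.87 to 8.46) for a transcript that both held above the heated level.

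The transcripts lower in recovery had few counts. The sense counts of uc009anj.1 were 0 and 0 unheated, 1 and 13 heated, and 0 and 0 in recovery, and those of uc008sxl.1 were 0 and 0 unheated, 5 and 2 heated, and 0 and 0 in recovery. The edgeR adjusted p was 0.0951 and 0.129. For uc009anj.1, 13 of the 14 counts came from the shallower heated library. With recovery at a floor of 3 counts over the group, its level was at least 5.91-fold lower than in heat shock.

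Tested on its own against heat shock, recovery 2 gave many transcripts past the threshold and recovery 1 none. A lone library has no spread of its own, so these fits assume that it varies like the other groups. For recovery 2, 101 of 618 transcripts (16.3%) passed in the either-strand counts, 100 higher (16.2%) and 1 lower (0.162%), and 68 of 537 (12.7%) in the sense counts, 65 higher (12.1%) and 3 lower (0.559%). For recovery 1, 0 passed in both counts (0%) by edgeR and 0 by DESeq2. At an unadjusted p below 0.05 recovery 1 had 23 higher and 8 lower (3.72% and 1.29%) in the either-strand counts and 31 higher and 6 lower (5.77% and 1.12%) in the sense counts. The lists of the sense and the either-strand counts for recovery 2 overlapped in part. The 2 counts share reads, so these lists are not independent of each other. Whether recovery 1 and recovery 2 differ was not tested, since each is 1 library of 1 group.

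Without HS 1, and likewise without HS 2, which leaves 1 library against 1, 0 transcripts passed in either count for recovery 2. The fitted folds moved little: leaving out each other library in turn, the either-strand log2 fold change ran from 8.60 to 8.97 for uc007puz.1 and from 8.23 to 8.59 for uc008lzb.1, the transcripts described next. Without the libraries under 20000 assigned counts (HS 2 and KO recovery 2) 0 passed as well, with 124 higher and 21 lower at an unadjusted p below 0.05 in the either-strand counts. Recovery 2 also had the higher sense share and the larger number of transcripts detected, given above, and the part of these in the calls was not tested.

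The largest change past the threshold in recovery 2 was again in uc007puz.1, with a fitted log2 fold change of 8.92 (SE 1.81, edgeR adjusted p 0.00860) in the either-strand counts, a fitted value that depends on the prior count since the heated libraries hold none. Next was uc008lzb.1, with sense counts of 17 and 70 unheated, 0 and 0 heated, 3 in recovery 1 and 44 in recovery 2. Its sense level in recovery 2 was 304 CPM, between 172 and 329 CPM in the unheated libraries, and at least 18.9-fold above the heated group at the floor. In recovery 1 its 3 counts are at that floor. The edgeR adjusted p for recovery 2 was 0.00860 in the either-strand counts and 0.0168 in the sense counts. The 1 transcript lower in recovery 2 in the either-strand counts was uc008kbm.2, with 9 and 8 counts unheated, 10 and 8 heated, 6 in recovery 1 and 0 in recovery 2. It was at least 3.47-fold lower in recovery 2 than in heat shock (edgeR adjusted p 0.0475). In the sense counts uc008kbm.2 (edgeR adjusted p 0.0383) and uc009anj.1 (0.0423) were among the 3 lower ones.

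**Figure D3:**
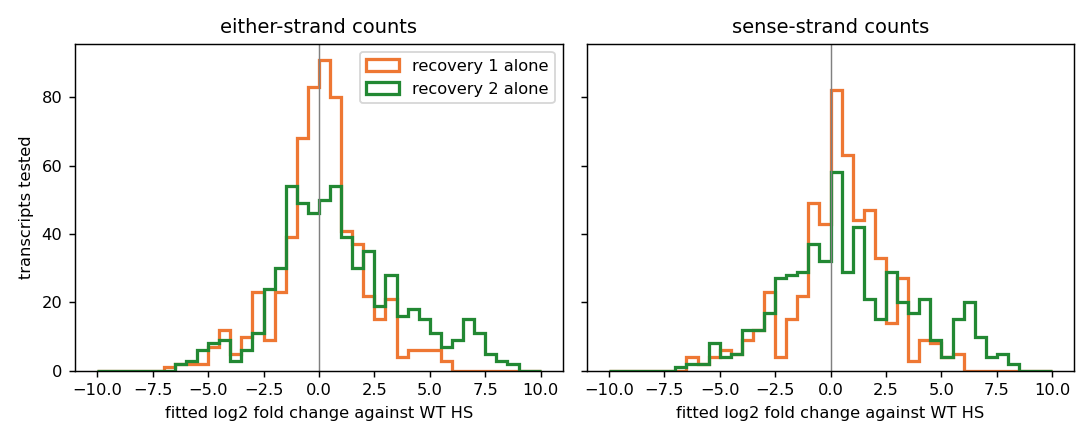
Fitted log2 fold change of each tested transcript against WT HS (x axis) and number of transcripts per bin (y axis), with recovery 1 alone (orange) and recovery 2 alone (green), in either-strand counts (left, 618 transcripts) and sense counts (right, 537). Recovery 2 has a second shoulder at high positive values where recovery 1 has few transcripts, and folds against heated libraries without counts depend on the prior count.

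Transcripts without a count in both heated libraries showed the difference between the recovery libraries in plain counts. Of the 618 tested transcripts 55 had none in HS 1 and HS 2. Of these, 38 had at least 1 count in recovery 1 and 51 in recovery 2. At least 10 counts were reached by 0 in recovery 1 and by 38 in recovery 2, against 31 and 49 in the unheated libraries. Of the 537 transcripts of the sense counts, 68 had none in the heated libraries, 46 of them had a count in recovery 1 and 65 in recovery 2, and at least 10 counts were reached by 0 and 44. Recovery 1 thus held a few counts for most of these transcripts. They were chosen for their zero in heat shock, so their rise over it is a description. They also passed the filter on low counts through libraries other than the heated WT ones, with the recovery libraries included. The limit of that filter is relative to a library's assigned counts, which were more numerous in recovery 1. The numbers reaching 10 counts are therefore a description too.

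To describe heat-sensitive transcripts without choosing them on a contrast of the libraries compared, the list of transcripts lower in KO HS than in KO noHS at an unadjusted p below 0.05 was used. It was drawn up after the data had been seen and held 124 of the 618 (20.1%) in the either-strand counts and 104 of the 537 (19.4%) in the sense counts. The contrast that chose its members was between KO libraries, while the filter and the spread behind each p came from all 12 libraries, the WT ones included. Their median either-strand level was 283 and 469 CPM in the unheated WT libraries, 19.0 and 0 CPM in the heated ones, 39.0 CPM in recovery 1 and 370 CPM in recovery 2. Recovery 2 lay between the unheated libraries and recovery 1 nearer to HS 1 than to these. Over all 618 transcripts the medians were 212 and 228, 76.0 and 82.9, 77.9 and 195 CPM in the same order. The sum over the 124 members, to which the most abundant contribute most, gave another picture for recovery 1, with 76115 and 140555 CPM unheated, 53972 and 36206 CPM heated, 83348 CPM in recovery 1 and 161658 CPM in recovery 2. Both recovery libraries were above both heated ones in this sum, and recovery 1 was within the unheated range. In the sense counts, over the 103 members outside the dominant transcripts, both recovery libraries were above the unheated ones. The sums were 29146 and 45666 CPM unheated, 26636 and 20178 CPM heated, 51166 CPM in recovery 1 and 56431 CPM in recovery 2.

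In recovery 2 alone against heat shock, 58 of the 124 passed the threshold higher and 0 lower, against 100 and 1 of the 618, and 113 had a positive log2 fold change, against 363 of 618. Their median log2 fold change was 3.62, against 0.64 over all tested transcripts. In recovery 1 alone 0 passed, 76 were positive, against 315 of 618, and the median was 1.01, against 0.05. With both libraries, 115 of 124 were positive, against 387 of 618, with a median of 2.95 against 0.55. In ratios of summed counts, with a group that has no count set to the floor of 3 counts, the median log2 ratio of recovery over heat shock was 2.47 in the 122 members where either side exceeded the floor and 0.53 in 597 of all tested. Sense counts gave medians of 3.01 for 104 members and 0.91 for all 537 with both libraries, 3.26 and 0.39 for recovery 2, and 0.93 and 0.41 for recovery 1.

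Against the unheated libraries the same 124 transcripts were lower in recovery 1 by the fitted median, with a log2 fold change of -3.04 (all tested -0.56) and 18 of 124 positive (all tested 248 of 618), and 67 of them were lower at an unadjusted p below 0.05, against 127 of 618 (20.6%). In recovery 2 the median was -0.16 (all tested -0.14), with 55 of 124 positive (all tested 278 of 618). At that p 3 of the 124 were lower, against 13 of 618 (2.10%), a share near the background. The unheated libraries serve both of these comparisons, so they are not independent of each other. Sense counts gave -2.91 for recovery 1 and -0.13 for recovery 2.

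**Figure D4:**
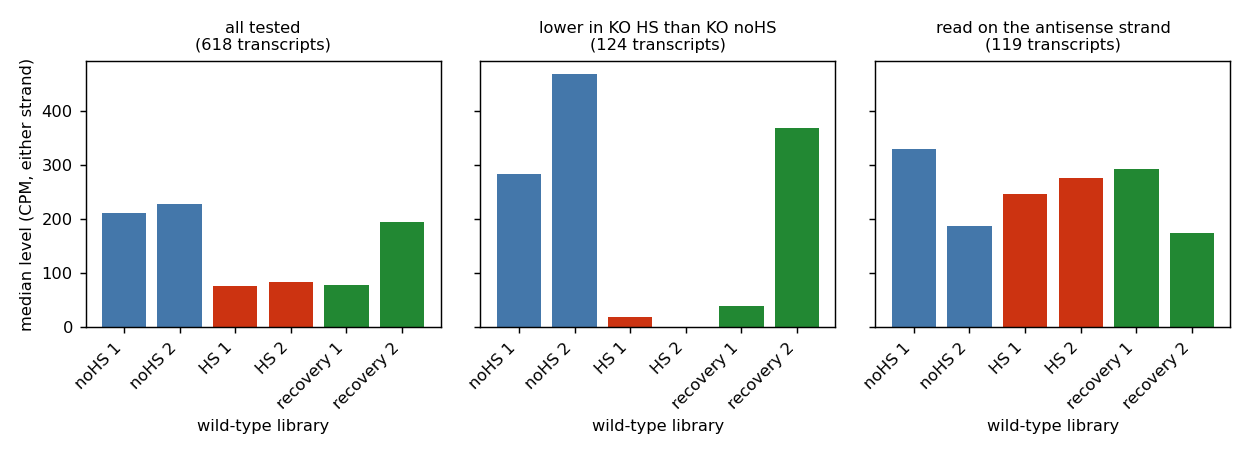
Median either-strand level in CPM (y axis) in each WT library over all 618 tested transcripts (left), the 124 lower in KO HS than KO noHS (middle) and the 119 read mostly on the antisense strand (right); 1 bar is 1 library, blue unheated, red heated, green recovery. In the middle panel recovery 1 is at 39.0 CPM and recovery 2 at 370 CPM, and in the right panel the 6 libraries stay between 175 and 330 CPM.

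The transcripts lower in heated than in unheated WT libraries (edgeR adjusted p below 0.05) numbered 60 in the either-strand counts (9.71% of 618). Low values in the heated and high values in the unheated libraries chose them, so their place between these groups is a description with no test. Their summed either-strand level was 32964 and 46078 CPM unheated, 703 and 442 CPM heated, 3954 CPM in recovery 1 and 28068 CPM in recovery 2. Of the 60, 49 had a count in recovery 1 and 58 in recovery 2, against 19 in HS 1 and 7 in HS 2. Recovery 1 held much less of this sum than recovery 2.

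By strand class, the 331 sense-class transcripts had a median log2 fold change of 1.44 for recovery over heat shock, with 256 positive, and the 119 antisense-class transcripts one of -0.14, with 50 positive. Over all 618 tested transcripts 387 were positive. In recovery 2 alone the medians of the sense and antisense classes were 1.83 and -0.49, and in recovery 1 alone 0.37 and -0.05. Of the 100 transcripts higher in recovery 2, 93 were of the sense class, 1 of the antisense class and 6 had fewer counts. Among all 618 tested, these were 331, 119 and 140. Recovery 2 also had the higher sense share, given above, and its part in this split was not tested. The median level of the antisense class was 330 and 188 CPM unheated, 247 and 276 heated, 292 in recovery 1 and 175 in recovery 2. These levels are relative to the library size after TMM scaling, which was 52620 in HS 1 against 182409 assigned counts. On that scale no order of heated, recovering and unheated libraries shows in them.

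Within the recovery group, transcripts spread more than within the other WT groups. The median absolute log2 ratio of recovery 2 to recovery 1 (levels plus 10 CPM) was 1.37 in the either-strand counts, against 0.97 between the unheated and 1.18 between the heated libraries. For sense counts it was 1.20, against 0.68 and 0.92. Over 4-fold higher in recovery 2 were 163 of the 618 transcripts, and 42 were over 4-fold higher in recovery 1. No count in recovery 1 and at least 10 in recovery 2 was found for 33 transcripts, and the reverse for 0. For sense counts these numbers were 109 and 44 of 537, and 43 and 0. The filter on low counts, which used these libraries too, bears on these numbers.

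The largest ratios among transcripts with at least 100 counts over the 6 WT libraries show both directions. The sense counts of uc007hle.1 were 54 and 118 unheated, 6 and 4 heated, 3 in recovery 1 and 53 in recovery 2, so that recovery 1 was at the heated level and recovery 2 was 11.1-fold higher (95% interval 3.61 to 55.7). For uc009ffb.2 they were 40 and 70, 6 and 0, 3 and 49 in the same order, a 10.3-fold difference (3.32 to 51.6). In the opposite direction, uc011xwc.1 had 3 and 24 unheated, 11 and 0 heated, 68 in recovery 1 and 3 in recovery 2, which is 36.0-fold more in recovery 1 (11.8 to 179). For uc012cny.2 they were 5 and 15, 14 and 2, 72 and 6, which is 19.1-fold more in recovery 1 (8.34 to 53.6). These ratios between 2 libraries were chosen as the largest and carry no test, and their intervals hold counting error only.

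Against heat shock, recovery 1 alone had one of its lowest p-values in uc012fyu.2. Its sense level was 345 and 521 CPM unheated, 323 and 66.7 CPM heated, 2874 CPM in recovery 1 and 345 CPM in recovery 2. Recovery 1 was thus 13.1-fold above heat shock in summed counts (9.37 to 18.6) and 6.18-fold above the unheated group (5.03 to 7.62). These intervals hold counting error only. Recovery 2 fell among the other libraries. The edgeR adjusted p for recovery 1 alone against heat shock was 0.576 in the sense counts and 0.743 in the either-strand counts. In the lower direction uc033hsh.1 had sense counts of 77 and 138 unheated, 54 and 757 heated, 7 in recovery 1 and 77 in recovery 2, with an adjusted p of 0.576. The heated libraries of this transcript stood far apart, at 485 and 10102 CPM.

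**Figure D5:**
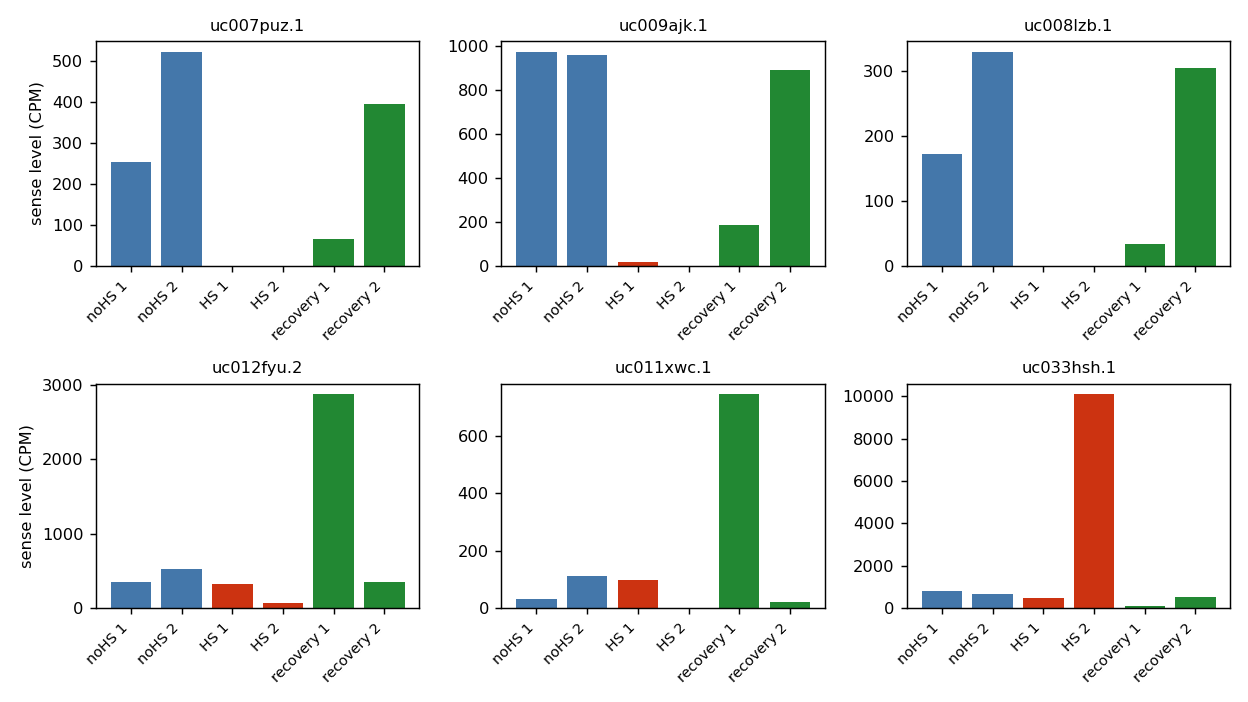
Sense level in CPM (y axis, own scale in each panel) of 6 named transcripts in the WT libraries; 1 bar is 1 library, blue unheated, red heated, green recovery. In uc007puz.1 and uc008lzb.1 recovery 2 lies within the unheated range and in uc009ajk.1 below it, at 891 CPM against 957 and 973, while recovery 1 is lower in all 3, in uc012fyu.2 and uc011xwc.1 recovery 1 is the highest of the 6, and in uc033hsh.1 HS 2 stands alone at 10102 CPM.

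The recovery libraries held like shares of their counts in uc008spx.1, 1 of the 4 dominant transcripts, named here after its values were seen. Its share of the either-strand counts was 2.14% and 4.29% in the unheated libraries, 2.90% and 2.07% in the heated ones, 8.89% in recovery 1 and 8.74% in recovery 2. Its share of the sense counts was 1.11% and 1.97%, 1.23% and 1.18%, and 4.16% and 4.22%, with 0 antisense counts in the 6 libraries. In KO its either-strand share was 6.14% and 5.25% unheated, 5.71% and 10.9% heated, and 1.81% and 1.26% in recovery. KO HS 2 thus exceeded both WT recovery libraries. Both WT recovery libraries were above the other 4 WT libraries in their shares of either count. They did not agree after TMM scaling, where its sense level was 122287 CPM in recovery 1 and 48881 CPM in recovery 2, against 47483 and 5405 CPM heated and 11512 and 22434 CPM unheated. The difference did not pass edgeR's test, with a log2 fold change over heat shock of 1.67 (SE 1.07, adjusted p 0.439) in the either-strand counts and 1.69 (SE 1.17, adjusted p 0.392) in the sense counts.

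The most abundant transcript of the 4 libraries in the either-strand counts, uc009vev.1, differed between the libraries of the heated group and of the recovery group. It took 82.7% and 49.6% of the either-strand counts in HS 1 and HS 2, 73.9% in recovery 1 and 54.9% in recovery 2, against 60.0% and 61.5% unheated. In the sense counts uc009vew.1 was the largest, with 60.6% and 54.3% heated, 55.7% and 53.9% in recovery, and 53.5% and 45.6% unheated. Of the either-strand counts it held only 0.198% and 0.123% heated, and 0.324% and 0.896% in recovery. Its sense counts were close to the antisense counts of uc012hdk.1, another dominant transcript. They were 261127 against 266346 in HS 1, and 90465 against 90141 in recovery 2. Whether these are the same reads was not tested. The edgeR adjusted p for recovery against heat shock was 0.956 for uc009vev.1 in the either-strand counts and 0.951 for uc009vew.1 in the sense counts.

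Against the unheated libraries, recovery as a group gave 0 transcripts past the threshold in both counts (0%) by edgeR. At an unadjusted p below 0.05 there were 5 higher (0.809%) and 22 lower (3.56%) in the either-strand counts, and 11 higher (2.05%) and 18 lower (3.35%) in the sense counts; DESeq2 gave 0 and 2, both of the latter lower. Among those of lowest p, uc011wul.1 had sense counts of 1 and 28 unheated, 29 and 1 heated, 70 in recovery 1 and 72 in recovery 2, high in both recovery libraries (edgeR adjusted p 0.786). Lower in recovery were uc007ptx.1, with 10 and 13 unheated and 0 in the other 4 WT libraries (adjusted p 0.242), and uc012ecs.1, with 38 and 2 unheated and 0 in the other 4 (adjusted p 0.114). In recovery at the floor, uc007ptx.1 was at least 3.56-fold lower in recovery 2 than unheated and at least 2.24-fold lower in recovery 1.

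Each recovery library alone against the unheated group again differed. Recovery 1 gave 0 past the threshold by edgeR and, at an unadjusted p below 0.05, 14 higher (2.27%) and 127 lower (20.6%) in the either-strand counts and 22 higher (4.10%) and 100 lower (18.6%) in the sense counts. DESeq2 gave 0 and 1. The either-strand count of 0 became 35 without KO HS 1 and 41 without KO HS 2, and the sense count became 13 without KO recovery 2, libraries that enter only the estimate of the spread and the scaling. Recovery 2 gave 0 by either tool, with 4 higher (0.647%) and 13 lower (2.10%) at that p, and 6 (1.12%) and 11 (2.05%) in the sense counts. Lowest in p for recovery 1 were uc007pri.1, with sense counts of 39 and 76 unheated, 0 and 0 heated, 0 in recovery 1 and 32 in recovery 2, and uc009cpv.2, with 25 and 59, 1 and 0, 0 and 19 in the same order. With recovery 1 at the floor, these were at least 11.2-fold and at least 8.19-fold lower in recovery 1 than unheated, with an edgeR adjusted p of 0.0941 for both. A p that misses the threshold does not show that recovery 2 equals the unheated state.

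Whether the change from heat shock to recovery differed between WT and KO was tested as the difference of the 2 changes (WT minus KO) in the same fit. It passed for 9 of 618 transcripts in the either-strand counts, 9 higher in WT (1.46%) and 0 lower (0%), and for 62 of 537 (11.5%) in the sense counts, 61 higher (11.4%) and 1 lower (0.186%). The median difference over all tested transcripts was 1.08 and 2.39 on the log2 scale, and under the other scalings it ran from 0.67 to 0.77 and from 1.16 to 1.66. In KO alone, recovery against heat shock gave 0 higher and 8 lower (1.29%) in the either-strand counts and 0 higher and 23 lower (4.28%) in the sense counts. Small libraries lie on both sides of the difference. KO recovery 1 and KO recovery 2 held 22514 and 8569 either-strand counts, and WT HS 2 held 19538. The TMM factors of the either-strand counts were 4.68 and 6.63 in KO recovery, against 0.425 and 0.724 in WT recovery. In the sense counts the factors were 10.7 and 16.0, against 0.345 and 0.913. With DESeq2's size factors in edgeR 0 passed in both counts, and without the libraries under 20000 assigned counts 0 passed as well. Without WT recovery 1 there were 67 and 41 transcripts, and without WT recovery 2 there were 2 and 28.

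Of the transcripts past this test, uc012cwd.1 had either-strand counts of 6 and 21 unheated, 0 and 0 heated and 6 and 18 in recovery in WT, and 7 and 27, 8 and 1, and 0 and 0 in KO. Both WT recovery libraries thus held it and both KO ones did not. For uc009vfb.1 they were 84 and 177, 46 and 1, and 177 and 286 in WT, and 219 and 508, 34 and 17, and 1 and 0 in KO. In WT both recovery libraries were above both heated ones, 8.52-fold in summed counts (6.30 to 11.8). The 1 transcript lower in WT in the sense counts was uc033gjx.1, with 13 and 148 heated and 14 and 8 in recovery in WT, and 9 and 0 heated and 54 and 5 in recovery in KO. Its WT value turns on HS 2, which held 148 of the 161 counts of the heated group.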

How the data were processed

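The authors deposited raw read counts per transcript for each of the 12 libraries in the layout of STAR's gene counts, with a count on either strand, a sense count and an antisense count, per the file layout. STAR, DESeq2 and the mouse build mm10 are named in the submitters' processing notes, without version or role. For trimming, alignment settings and annotation version: not given in the sources used here. Per the labels' protocols, RNase I digestion of cycloheximide lysates was followed by a sucrose gradient, size selection and Ribo-Zero Gold depletion of ribosomal RNA. The 4 lines of unassigned reads (unmapped, mapped to several places, in no transcript, ambiguous) were left out. In the WT libraries 2.20% to 8.75% of the reads in the file were assigned, against unmapped shares of 36.8% to 50.1%, multimapping shares of 25.6% to 27.8%, shares outside transcripts of 12.1% to 17.2% and ambiguous shares of 3.12% to 13.5%. An either-strand count does not tell on which strand a read lay. It is also not the sum of the stranded counts. In HS 1, uc009vew.1 held 261127 sense and 826 antisense counts but 361 either-strand counts.

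Using edgeR 4.0.16 in R 4.3.3, filterByExpr (minimum count 10) chose the transcripts, TMM scaled the libraries, and the quasi-likelihood test was run in a joint model of the 6 groups, which leaves 6 residual degrees of freedom. Benjamini-Hochberg adjustment covered every transcript tested (threshold 0.05). CPM are counts per 1000000 after TMM. DESeq2 1.42.0 was an alternative, as were other scalings, no filter, fewer libraries, each library left out and the replicate number as a block. Where a group held no count, its floor was set to 3 counts in the whole group to give a bound on the fold; in single libraries 3 counts are 0.00239% and 0.00370% of the assigned counts of recovery 1 and recovery 2. Library measures used exact permutation tests. The fits were tested on simulated data with the spread of the series and the same average make-up in every library. Of true 4-fold changes between recovery and heat shock, 11.8% passed in the either-strand and 16.0% in the sense counts. Of 16-fold changes 65.9% and 61.6% passed, and of unchanged transcripts 3 of 516 and 3 of 527. Most 4-fold changes were thus missed at this spread in the simulated data. The real libraries differ in make-up, with either-strand TMM factors from 0.296 (WT HS 1) to 6.63 (KO recovery 2). These rates may therefore not hold for the real fits. Transcripts were named by rule, at most 2 per direction and comparison: past the threshold, at least 10 CPM on average, no overlap between the groups (not required for WT against KO) and the largest change, or else the lowest unadjusted p; the widest ratios between the recovery libraries; and those above 10% of a library. The gene lists and cell type markers planned for named genes were not analysed, since the identifiers could not be paired with symbols. The members, lists and tests were chosen with earlier results of these data known.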

Additional observations from a re-analysis of the deposited data

Results flagged for a closer look

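The change from heat shock to recovery differed between WT and KO (edgeR's test of the difference, adjusted over all transcripts tested) for 9 transcripts in the either-strand counts and 62 in the sense counts. The log2 difference (WT minus KO) was 8.97 for uc009vfb.1 and 11.84 for uc012cwd.1 in the either-strand counts. In the sense counts it was 11.93 for uc007puz.1, 12.18 for uc012cwd.1 and -5.02 for uc033gjx.1. These fitted values depend on the prior count wherever a group has no count, as in WT heat shock and KO recovery for uc012cwd.1 and uc007puz.1.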

How the results depend on the processing

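For recovery against heat shock, the either-strand count of 0 became 6 and the sense count 1 with DESeq2, and leaving out 1 library gave 0 to 101 and 0 to 68, the highest without recovery 1. Against unheated cells, 0 in the either-strand counts held for all alternatives run, and the sense count became 2 with DESeq2, 1 without the libraries under 20000 assigned counts, and 0 to 2 on leaving out 1 library. For recovery 2 alone against heat shock, the either-strand count of 101 became 48 with TMM without the dominant transcripts, 19 with DESeq2, and 0 with no filter or without the libraries under 20000 counts; leaving out 1 library gave 0 to 120. The sense count of 68 became 103 with DESeq2's size factors, 167 with library sizes set to all reads, 15 with DESeq2, and 0 with no filter, with WT libraries only or without the libraries under 20000 counts; leaving out 1 library gave 0 to 108. Recovery 1 alone against heat shock stayed at 0 in all alternatives run, and against unheated cells ranged from 0 to 41 and from 0 to 13 on leaving out 1 library, highest without KO HS 2 and without KO recovery 2, with 1 in the sense counts by DESeq2. The alternatives for a recovery library on its own and for the KO-chosen list were chosen after seeing the data. Recovery 2 alone against unheated cells stayed at 0 in all alternatives run.

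For WT against KO, the either-strand count of 9 became 0 with DESeq2's size factors, no filter or without the libraries under 20000 counts, 2 with all reads as library size, TMM without the dominant transcripts or only the groups compared, and 31 with DESeq2; leaving out 1 library gave 0 to 67. The sense count of 62 became 0 with DESeq2's size factors, TMM without the dominant transcripts, no filter or without the libraries under 20000 counts, 2 with all reads, 12 with only the groups compared and 26 with DESeq2; leaving out 1 library gave 0 to 44. The cause of these changes was not tested, except that fewer libraries and more transcripts tested are built into 2 of the settings.

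With the replicate number as a block, recovery against heat shock and against unheated cells stayed at 0 in both counts, and WT against KO became 3 and 22. The correlation of the replicate differences was -0.042 and 0.058 between heat shock and recovery. Between unheated and recovery it was 0.355 and 0.272, the highest of all pairs of groups in both counts. Whether libraries of the same replicate number have something in common was not tested.

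On leaving out 1 library, the sense share differed by 7.85 to 23.2 percentage points, the summed level of the 60 transcripts by 3382 to 27495 CPM, and that of the KO-chosen list by 0.89 to 1.84 on the log2 scale. The transcripts detected differed by -10.0007 to 453, and the sign turned to the lower value without recovery 2. With no transcript left out the sense share differed by 3.18 points. Depth limits low transcripts most: HS 2 held 9232 counts outside the dominant transcripts, so a transcript without a count there may still be translated.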
